A study of Homo sapiens with 8 samples.

Results

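The genes described here are 38 genes for the DNA polymerases of the replication fork and the proteins that work beside them, chosen by name from a table of RNA levels of the endothelial cell line EA.hy926. One transcript was kept for each gene, the one with the highest mean level over the 8 libraries, so that the 38 genes stand among 27946 listed. All 38 were among the 13790 genes expressed enough to be tested (2 or more libraries with an FPKM of 0.5 or higher). FPKM are fragments per kilobase of transcript, scaled to the reads of the library. Their sum over the listed genes was 349205 and 348792 in control. It was 377895 to 388116 in the deletion group ΔE2 and 376339 to 419631 in the group ΔSE12313-b, both described below. Small differences between groups are therefore to be read with the other scalings given below.

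The 8 libraries fall into 3 groups. Control EA.hy926 cells gave 2 libraries, lines in which the enhancer E2 had been removed with Cas9 and a pair of guide RNAs (ΔE2) gave 3, and lines without the neighbouring element SE12313-b (ΔSE12313-b) gave 3. E2 and SE12313-b belong to 1 endothelial super-enhancer, SE12313, and the study deleted SE12313-b, which had been inactive in its reporter assays, as a negative control for E2. Each deletion library is a clonal line grown from 1 cell, so its replicates are clones, and effects of the deletion and of the passage through a single cell cannot be told apart. The control cells of the study's proliferation assay had been given guide RNAs and grown alongside while clones were raised, and neither the labels nor the methods say whether the control RNA came from these, whether it came from a clone, or whether the control libraries came from separate cultures, and p-values then measure only the spread between these libraries. All groups were grown in high-glucose medium with serum and antibiotics, and total RNA was depleted of ribosomal RNA before sequencing. EA.hy926 is a hybrid of an umbilical vein endothelial cell and a lung carcinoma cell.

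The depth of a library lay between 12067558 and 19101149 reads, with 7802451 to 13374308 of them on listed genes. Both deletions are compared with the same 2 control libraries, so their values are given side by side and are not independent of each other. Of 9 endothelial markers 8 were expressed enough to be tested, with a summed level of 434 FPKM in both controls, 459 to 649 in ΔE2 and 480 to 667 in ΔSE12313-b, while KDR was under the minimum. The markers did not move as 1, since VWF was called lower in both deletions (log2 fold changes of -1.72 and -1.80) and PECAM1 (1.11 and 2.10) and ERG (1.25 and 1.09) higher. The ΔE2 clone of replicate 2 stood apart in CDH5, at 141 FPKM against 72.5 and 83.8 in the other ΔE2 clones, and in PECAM1, at 20.9 against 10.4 and 10.2. Of 6 epithelial markers KRT7, KRT8 and KRT18 were expressed. The sum of the 6 was 361 and 363 FPKM in control, 1084 to 1210 in ΔE2 and 811 to 1069 in ΔSE12313-b, with CDH1 at 0 in all libraries and EPCAM and KRT19 under the minimum. This sum moved with the replication genes below, and its part in their differences was not tested. Of 5 fibroblast markers (sums of at most 0.299 FPKM) none reached the minimum, nor did the leukocyte markers PTPRC, CD14 and CD3E (at most 0.048 FPKM each), and DCN, LUM and CD3E were at 0 in all libraries.

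DNA is copied at forks by a division of labour. The CMG helicase, built of MCM2 to MCM7, CDC45 and the GINS complex, unwinds the strands, and RPA coats the strand that is exposed. Polymerase α with its primase subunits lays down short primers, RFC then loads the sliding clamp PCNA, polymerase ε extends the leading strand and polymerase δ the lagging strand, and FEN1, DNA2 and LIG1 turn Okazaki fragments into a continuous strand. Many of these genes are transcribed at the border of G1 and S phase under E2F factors.

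Promoter sequences from RefSeq (GRCh38.p14, 250 bases before to 50 after each start site) were at hand for 33 of the 38 genes. The E2F letters TTTCCCGC, TTTCGCGC, TTTGCCGC and TTTGGCGC, searched on both strands, were found in 12 of the 33 (36.4%). They were found in 897 of all 27058 promoters of this RefSeq set (3.32%) and in 532 of its 9643 promoters of genes tested here (5.52%). By the calls given below, 11 of 27 promoters of genes that were higher in both deletions held them (40.7%) and 1 of 6 promoters of the others (16.7%). The cell cycle element TTTGAA was in 0 of the 33 promoters, against 9.76% of the promoters of genes tested. CCAAT was in 19 of the 33 (57.6%), against 37.3%. By the same calls, CCAAT was in 14 of the 27 promoters (51.9%) and in 5 of the 6 others (83.3%). Neither split by calls was tested, and 1 side of each holds only 6 promoters. A match describes letters and not a bound factor, and the lack of one covers only this window. The following 30-base windows are shown because they are the members' windows in which the match, in capitals, lies wholly upstream of the start site. The first base of the match is counted from the start site, and each sequence is read 5′ to 3′ along the gene.
POLA1 (chrX:24693770-24693799, plus strand, match from -137): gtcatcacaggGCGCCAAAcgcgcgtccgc
POLA2 (chr11:65261898-65261927, plus strand, match from -53): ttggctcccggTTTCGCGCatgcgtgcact
POLE (chr12:132687342-132687371, minus strand, match from -18): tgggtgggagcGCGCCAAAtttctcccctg
PCNA (chr20:5126663-5126692, minus strand, match from -59): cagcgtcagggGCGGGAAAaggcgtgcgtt
RFC3 (chr13:33818083-33818112, plus strand, match from -55): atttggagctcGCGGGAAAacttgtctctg
LIG1 (chr19:48170440-48170469, minus strand, match from -114): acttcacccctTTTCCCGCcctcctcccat
GINS2 (chr16:85688967-85688996, minus strand, match from -31): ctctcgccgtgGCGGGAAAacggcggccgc
POLE4 (chr2:74958601-74958630, plus strand, match from -31): ctccagcccgcGCGGGAAAgggcctgcgcc
All but POLE4 were higher in both deletions. GCGCCAAA and GCGGGAAA are TTTGGCGC and TTTCCCGC read on the other strand.

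The first question was how the RNA of these genes differed between control cells and clones of either deletion. Most of them were several-fold higher in both sets of clones. Called genes have an adjusted p under 0.05 (limma on log2(FPKM + 0.1), Benjamini-Hochberg over all 13790 genes) and differ at least 2-fold, and fold changes on this scale understate those of genes with low levels. In ΔE2, 32 of the 38 genes were called higher than in control, where 11.2% of all genes tested were called higher, and 0 were called lower, where 8.36% of all genes were. In ΔSE12313-b, 31 were called higher (14.7% of all genes) and 0 lower (7.83% of all genes). GINS4, counted in both deletions, reached the minimum level only through the clones. With FPKM above 0 in at least 2 libraries as the minimum, which its controls also met, the counts were again 32 and 31. In ΔE2 the 38 genes had a median log2 fold change of 2.03 (0.14 over all genes tested), and in ΔSE12313-b one of 2.14 (0.27 over all genes). With each library centred on its median ratio to the mean library the genes tested split into 8.48% higher and 10.6% lower in ΔE2 and 8.71% higher and 11.4% lower in ΔSE12313-b, and 32 and 30 of the 38 genes were then higher. With quantile normalization the split was 9.49% to 10.0% and 10.2% to 10.1%, with 33 and 29 of the 38 genes higher.

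Summed over the 38 genes, the level was 259 and 264 FPKM in the control libraries. It was 969, 891 and 1041 FPKM in the ΔE2 clones and 1061, 971 and 994 FPKM in the ΔSE12313-b clones, so the clones lay together and far above both controls. All 3 clones were above both controls for 37 of the 38 genes in ΔE2 (44.8% of all genes tested) and for 36 in ΔSE12313-b (51.6%). POLD4 was the 1 gene of the 38 with every clone of both deletions below both controls. Of all genes tested, 28.7% lay below both controls in ΔE2 and 23.8% in ΔSE12313-b. These are bulk libraries, in which more cells with a transcript and more of it per cell cannot be told apart. In separate assays the study found a smaller share of S-phase cells in clones of both deletions than in control cells. It also found a larger share in G0/G1 and slower proliferation. How these measurements relate to the RNA levels was not tested.

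Polymerase α and primase, which start every new strand, were called higher as a whole, 4 of 4 genes in both deletions. PRIM1, the catalytic subunit of primase, had the largest change of them, with 4.30 and 4.07 FPKM in the controls, 36.1, 32.3 and 37.3 in ΔE2 and 33.9, 32.1 and 29.8 in ΔSE12313-b. The log2 fold changes of PRIM1 were 3.04 ± 0.09 (SE) in ΔE2 (adjusted p = 3.43e-07) and 2.90 ± 0.09 in ΔSE12313-b (adjusted p = 3.98e-07). POLA1, the catalytic subunit of the polymerase, had the smallest, with 2.99 and 2.58 FPKM in control, 9.73, 7.59 and 10.1 in ΔE2 and 9.34, 8.96 and 8.18 in ΔSE12313-b. No clone overlapped the controls for either gene. PRIM1 was thus at 1.51 ± 0.0983 times the level of POLA1 in control (SD, n = 2), 3.88 ± 0.324 times in ΔE2 and 3.62 ± 0.0303 times in ΔSE12313-b (SD, n = 3). PRIM2, the large primase subunit, was at 3.76 ± 0.814 FPKM in control, 15.5 ± 1.79 in ΔE2 and 18.1 ± 2.78 in ΔSE12313-b. Part of the exons of PRIM2 is also annotated to the pseudogene PRIM2BP (13.2% of their bases) and to a non-coding RNA gene (17.3%), so its reads may be shared. PRIM1 shares 12.5% of its exon bases with another protein-coding gene on the same strand. POLA2, the regulatory subunit, was at 2.68 ± 0.175, 13.9 ± 1.5 and 8.78 ± 0.92 FPKM. Of its exon bases 17.6% are also annotated to another protein-coding gene on the same strand, so its reads may be shared too.

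Polymerase δ, the lagging-strand enzyme, was the group with the fewest calls, 1 of 4 genes in either deletion. POLD1, its catalytic subunit, was at 4.37 and 5.47 FPKM in control, 14.6, 12.8 and 14.2 in ΔE2 and 22.4, 19.5 and 19.3 in ΔSE12313-b. Its log2 fold changes were 1.48 ± 0.12 (adjusted p = 4.41e-05) and 2.03 ± 0.12 (adjusted p = 6.98e-06), and all 6 clones were above both controls. POLD4, the smallest subunit, which the cell removes after DNA damage, ran the other way. It was at 15.6 FPKM in both controls, 10.7, 13.2 and 12.2 in ΔE2 and 9.51, 9.25 and 12.9 in ΔSE12313-b. Its log2 fold changes were -0.38 ± 0.16 (adjusted p = 0.073) and -0.58 ± 0.16 (adjusted p = 0.0132), under the 2-fold minimum in both. Centred libraries gave -0.53 (adjusted p = 0.0191) and -0.86 (adjusted p = 0.00205), and quantile normalization -0.64 and -0.97. POLD4 lies on chromosome 11 from 67118236 to 67121067 (GRCh37, minus strand), and all 5 of its listed transcripts, whose reads overlap, had every clone below both controls. Its exons share 23.0% of their bases with a read-through gene annotated on the same strand.

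POLD2 and POLD3, which tie the catalytic subunit to the rest of the enzyme and to PCNA, were above control in all clones but under the 2-fold minimum. POLD2 was at 21.9 ± 0.697 FPKM in control, 38.6 ± 3.14 in ΔE2 and 43.5 ± 4.07 in ΔSE12313-b. Its log2 fold change was 0.81 in ΔE2 (adjusted p = 3.83e-04) and 0.98 in ΔSE12313-b (adjusted p = 1.12e-04). POLD3 was at 4.42 ± 0.186, 8.91 ± 0.299 and 7.74 ± 0.96 FPKM, with log2 fold changes of 1.00 when rounded in ΔE2, just short of the minimum, and 0.79 in ΔSE12313-b (adjusted p = 6.03e-04). Calls of the values nearest the minimum hinge on libraries and settings. POLD3 was called in ΔE2 without control replicate 1 (1.04), without ΔE2 replicate 1 or 2, with a pseudocount of 0.01, with every transcript tested and with voom on recovered reads (1.01 each). POLD2 was called in ΔSE12313-b without control replicate 1 (1.01) or ΔSE12313-b replicate 2 (1.05) and with every transcript tested. Levels of the catalytic subunit and POLD4 drew together or crossed. In control the level of POLD4 was 3.22 ± 0.503 times that of POLD1, in ΔE2 0.876 ± 0.151 times and in ΔSE12313-b 0.523 ± 0.13 times, and it was above POLD1 in 1 clone, ΔE2 replicate 2 (1.03 times). Ranked among the 38 genes by mean FPKM, POLD4 was number 3 in control, number 28 in ΔE2 and number 30 in ΔSE12313-b.

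Polymerase ε, which copies the leading strand, had 3 of 4 genes called higher in both deletions. POLE2, its second subunit, was at 2.37 and 2.12 FPKM in control, 15.1, 14.1 and 16.4 in ΔE2 and 12.6, 13.8 and 16.4 in ΔSE12313-b, the largest change of the group with log2 fold changes of 2.71 ± 0.13 and 2.61 ± 0.13 (adjusted p = 2.45e-06 and 2.61e-06). POLE, the catalytic subunit, went from 1.30 ± 0.0184 FPKM to 5.64 ± 0.577 and 5.65 ± 0.419. The histone-fold subunits POLE3 and POLE4 were the most abundant of the enzyme in control. POLE3, which also serves in a chromatin remodelling complex, went from 14.1 ± 1.74 to 37.5 ± 3.41 and 39.8 ± 2.53 FPKM. POLE4 was at 15.0 and 14.7 FPKM in control, 22.1, 20.1 and 22.8 in ΔE2 and 21.7, 25.1 and 21.7 in ΔSE12313-b. All clones were above both controls for POLE4, yet by less than 2-fold (log2 fold changes of 0.54 ± 0.09 and 0.62 ± 0.09, adjusted p = 0.00173 and 7.48e-04). The level of POLE4 was 11.4 ± 0.321 times that of POLE in control, 3.85 ± 0.164 times in ΔE2 and 4.05 ± 0.38 times in ΔSE12313-b.

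PCNA, the sliding clamp, was the most abundant of the 38 genes in every group. Its level was 63.3 ± 0.791 FPKM in control, 258 ± 24.1 in ΔE2 and 276 ± 14.6 in ΔSE12313-b. Against control the log2 fold change of PCNA was 2.02 ± 0.09 in ΔE2 (adjusted p = 1.86e-06) and 2.12 ± 0.09 in ΔSE12313-b (adjusted p = 1.32e-06). Of the 5 subunits of its loader RFC, 4 were called higher in both deletions. RFC3 changed most, from 1.29 and 1.60 FPKM in control to 12.1, 9.29 and 12.7 in ΔE2 and 12.0, 11.0 and 9.25 in ΔSE12313-b (log2 fold changes of 2.89 ± 0.17 and 2.81 ± 0.17, adjusted p = 8.08e-06 and 7.99e-06). RFC2 went from 3.36 ± 0.0778 to 19.9 ± 2.0 and 23.2 ± 2.07 FPKM. RFC5 went from 3.35 ± 0.734 to 15.4 ± 2.17 and 13.2 ± 0.539. RFC4 went from 5.57 ± 0.0488 to 19.8 ± 0.999 and 30.1 ± 1.33. RFC1, the large subunit that only the PCNA loader has, was the exception. It was at 9.80 and 10.1 FPKM in control, 14.7, 14.3 and 16.4 in ΔE2 and 15.97, 14.3 and 13.9 in ΔSE12313-b, apart from the controls but not called (log2 fold changes of 0.60 ± 0.09 and 0.56 ± 0.09, adjusted p = 0.00109 and 0.00133). The ratio of RFC1 to RFC2 was 2.96 ± 0.122 in control, 0.766 ± 0.0367 in ΔE2 and 0.636 ± 0.0115 in ΔSE12313-b. RFC1 was thus the most abundant subunit of the loader in control and below RFC2 and RFC4 in each of the 6 clones.

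RPA, the complex that binds exposed strands, had 3 of 3 subunits called higher in both deletions, with median log2 fold changes of 1.28 and 1.36, the smallest among the roles of which all genes were called. RPA3, the smallest subunit, was at 2.37 and 3.04 FPKM in control, 7.01, 7.61 and 7.29 in ΔE2 and 9.90, 8.73 and 9.22 in ΔSE12313-b (log2 fold changes of 1.41 ± 0.12 and 1.75 ± 0.12, adjusted p = 5.43e-05 and 1.43e-05). RPA2, which is phosphorylated when forks stall, was at 12.3 and 11.4 FPKM in control, 31.0, 26.7 and 29.4 in ΔE2 and 28.8, 29.1 and 27.5 in ΔSE12313-b (log2 fold changes of 1.28 ± 0.08 and 1.26 ± 0.08, adjusted p = 1.39e-05 and 1.25e-05). RPA1, the main DNA-binding subunit, went from 13.7 ± 0.361 to 33.3 ± 2.52 and 35.5 ± 2.23 FPKM. No clone overlapped the controls for any of the 3. In ΔSE12313-b the call rests on the scaling. RPA2 had a log2 fold change of 0.97 with centred libraries and 0.87 with quantile normalization, and RPA1 one of 0.96 with the latter.

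Among the enzymes that finish Okazaki fragments and remove RNA from DNA, 5 of 6 genes were called higher in ΔE2 and 4 of 6 in ΔSE12313-b. FEN1, the nuclease that cuts the flaps (chromosome 11 from 61560109 to 61564714, GRCh37, plus strand), lay at 4.06 and 3.66 FPKM in control, at 64.9, 53.2 and 64.5 in ΔE2 and at 51.7, 50.3 and 48.0 in ΔSE12313-b. The means were 15.8-fold and 13.0-fold above control (log2 fold changes of 3.94 ± 0.10 and 3.66 ± 0.10, adjusted p = 2.65e-07 and 2.89e-07), and FEN1 went from number 17 among the 38 genes to number 2 in ΔE2 and number 3 in ΔSE12313-b. DNA2, which trims long flaps, went from 1.16 ± 0.147 FPKM to 10.3 ± 1.32 and 10.9 ± 1.42. LIG1, the ligase that seals the nicks, went from 2.60 ± 0.106 to 12.3 ± 0.546 and 15.6 ± 0.766. The ratio of FEN1 to LIG1 was 1.48 ± 0.0494 in control, 4.96 ± 0.63 in ΔE2 and 3.20 ± 0.13 in ΔSE12313-b.

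RNase H2 removes ribonucleotides from DNA, and its 3 genes each went a different way. RNASEH2A, the catalytic subunit, was at 7.90 ± 0.94 FPKM in control, 32.7 ± 3.1 in ΔE2 and 50.1 ± 5.55 in ΔSE12313-b. Of its exon bases 54.5% are also annotated to THSD8 on the same strand, and reads of the pair cannot be told apart there. RNASEH2C, a structural subunit (chromosome 11 from 65485144 to 65488409, GRCh37, minus strand), was called higher in ΔE2 but not in ΔSE12313-b. It was at 3.20 and 3.16 FPKM in control, 8.70, 6.75 and 8.75 in ΔE2 and 5.30, 5.59 and 3.33 in ΔSE12313-b. The log2 fold changes of RNASEH2C were 1.30 ± 0.22 (adjusted p = 0.00178) and 0.53 ± 0.22 (adjusted p = 0.0748). The library kit keeps strands apart, but whether the deposited table used them is not given in the sources used here, and 34.1% of the exon bases of RNASEH2C overlap KAT5, a histone acetyltransferase gene on the opposite strand. KAT5 was at 9.97 ± 0.972 FPKM in control, 14.5 ± 0.502 in ΔE2 and 8.36 ± 0.424 in ΔSE12313-b, and its part in the values of RNASEH2C was not tested.

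RNASEH2B, the other structural subunit (chromosome 13 from 51483814 to 51530901, GRCh37, plus strand), was at the edge of detection. Its levels were 0.439 and 0.154 FPKM in control, 0.713, 0.976 and 0.909 in ΔE2 and 0, 0.209 and 0.195 in ΔSE12313-b, which stand for 9 and 3 reads, 22, 27 and 20 reads, and 0, 5 and 5 reads. The ΔE2 clones were above all other libraries, and the ΔSE12313-b clones overlapped the controls. Neither deletion differed from control past the threshold (1.37 ± 0.59 on the log2 scale in ΔE2 with an adjusted p of 0.0816, and -0.82 ± 0.59 in ΔSE12313-b with one of 0.258). The gene was called higher in ΔE2 without the ΔSE12313-b clone of replicate 1 (adjusted p = 0.0258), with only the groups compared (adjusted p = 0.0301) and with quantile normalization (1.70, adjusted p = 0.0471). RNASEH2B passed the minimum level through its ΔE2 libraries alone.

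The GINS complex and CDC45, parts of the helicase, held the largest changes, with 5 of 5 genes called higher in both deletions. GINS2, on chromosome 16 from 85711280 to 85722588 (GRCh37, minus strand), was at 0.537 and 0.777 FPKM in control, 28.7, 24.5 and 34.7 in ΔE2 and 26.3, 20.1 and 19.5 in ΔSE12313-b. These stand for 8 and 11 reads in control, 643, 493 and 554 in ΔE2 and 497, 349 and 363 in ΔSE12313-b. The means of GINS2 were 44.6-fold and 33.4-fold above control, or 5.28 ± 0.20 (adjusted p = 8.49e-07) and 4.87 ± 0.20 (adjusted p = 1.17e-06) on the log2 scale, and the few reads in control limit the precision of the fold. GINS4 had 9 and 10 reads in control and went from 0.201 ± 0.0219 FPKM to 6.01 ± 0.491 and 5.44 ± 0.671. It reached the minimum level of the test only through the clones, so its calls are a description. Of the exon bases of GINS4, 21.0% are also annotated to a non-coding RNA gene on the opposite strand. GINS1 went from 2.37 ± 0.141 to 27.0 ± 3.4 and 25.9 ± 3.01. GINS3 was the subunit with the highest level in control, 5.28 and 4.97 FPKM, and changed least, with 14.6, 18.4 and 16.5 in ΔE2 and 22.7, 19.9 and 27.2 in ΔSE12313-b (log2 fold changes of 1.66 ± 0.14 and 2.15 ± 0.14, adjusted p = 5.91e-05 and 1.28e-05). Its level was 2.16 ± 0.0361 times that of GINS1 in control, 0.620 ± 0.129 times in ΔE2 and 0.908 ± 0.199 times in ΔSE12313-b. The 4 subunits, which enter the complex as 1 copy each, thus stood at closer RNA levels in the clones. CDC45 went from 2.87 ± 0.19 to 13.9 ± 0.946 and 16.2 ± 0.648 FPKM.

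The proteins that rebuild chromatin behind the fork or hold it together were called higher in both deletions, 6 of 6. CLSPN (claspin), which carries the checkpoint signal from the fork to CHK1, was at 1.97 and 2.05 FPKM in control, 18.2, 13.8 and 18.0 in ΔE2 and 18.1, 18.8 and 18.4 in ΔSE12313-b (log2 fold changes of 2.98 ± 0.12 and 3.13 ± 0.12, adjusted p = 1.24e-06 and 9.72e-07). TIPIN changed least, with 4.28 and 3.85 FPKM in control, 16.5, 13.4 and 17.3 in ΔE2 and 15.4, 14.8 and 12.8 in ΔSE12313-b (log2 fold changes of 1.92 ± 0.13 and 1.79 ± 0.13, adjusted p = 1.91e-05 and 2.16e-05). TIMELESS, with which TIPIN forms a pair at the fork, went from 8.37 ± 0.165 to 33.5 ± 1.35 and 32.6 ± 1.48 FPKM. Their ratio, TIMELESS to TIPIN, was 2.06 ± 0.113 in control, 2.15 ± 0.218 in ΔE2 and 2.28 ± 0.156 in ΔSE12313-b. CHAF1A and CHAF1B, subunits of the chromatin assembly factor CAF-1 that PCNA recruits, went from 3.63 ± 0.024 to 22.1 ± 2.98 and 17.7 ± 1.2 FPKM and from 2.65 ± 0.247 to 13.6 ± 1.13 and 14.6 ± 1.23 FPKM. WDHD1, which links the helicase to polymerase α, went from 2.73 ± 0.231 to 11.7 ± 1.31 and 12.8 ± 0.801.

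**Figure D1:**
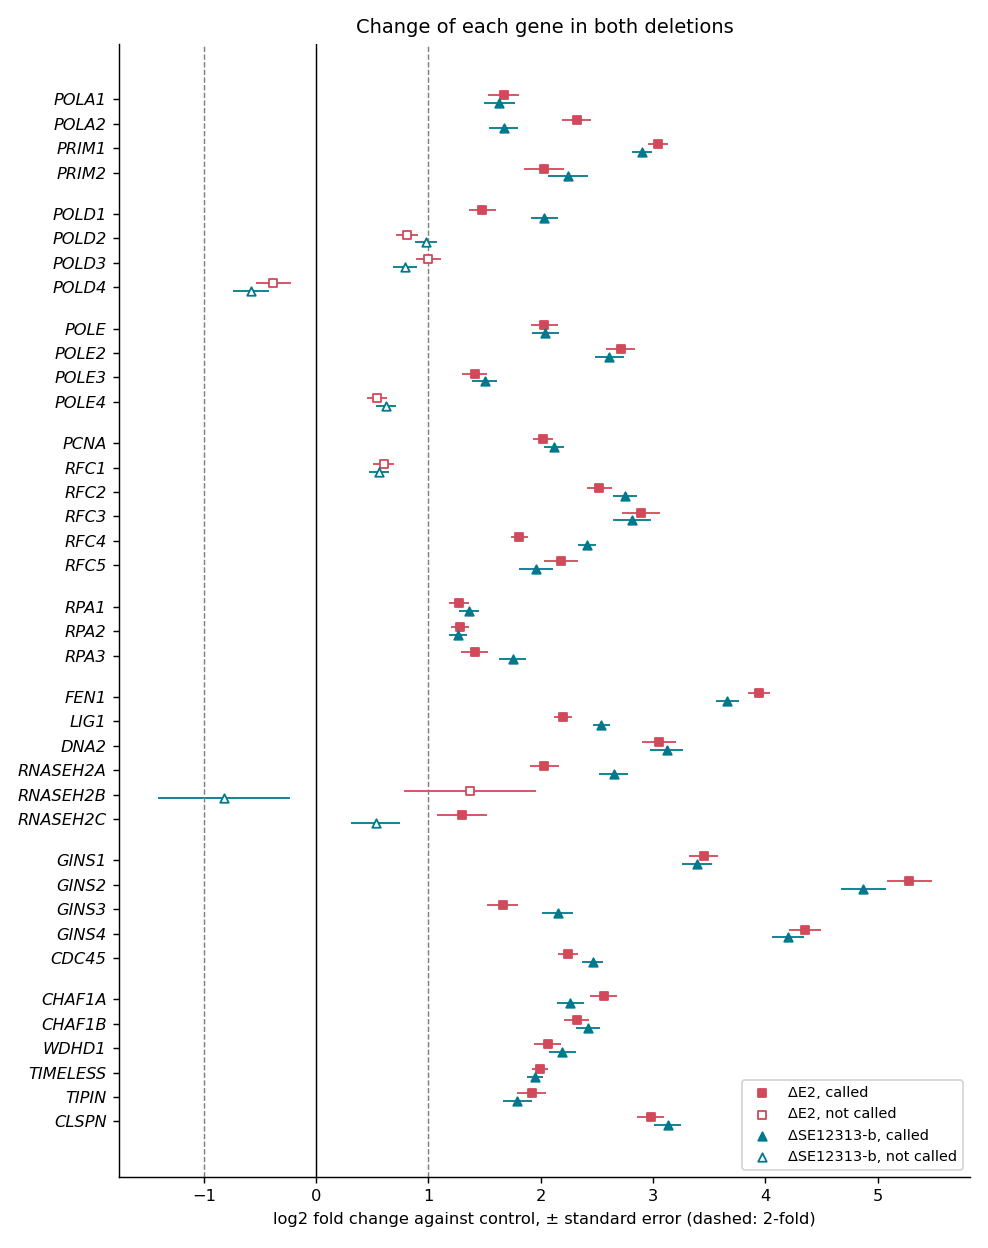
Log2 fold change against control of each gene in ΔE2 (red squares) and ΔSE12313-b (blue triangles), with standard errors as bars, filled where called. In both deletions 31 genes are called and lie right of the dashed 2-fold line, by mean change from RPA2 at 1.28 and 1.26 to GINS2 at 5.28 and 4.87, and POLD4 alone lies left of 0 in both.

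In all, 31 genes were called higher in both deletions and 7 were not, namely POLD2, POLD3, POLD4, POLE4, RFC1, RNASEH2B and RNASEH2C. In control, POLD2, POLD4, POLE4 and RFC1 were among the 8 most abundant of the 38 genes, so the order of levels changed. POLE4 went from number 4 to numbers 13 and 14 and RFC1 from number 8 to number 22 in both deletions, while GINS2 went from number 36 to numbers 9 and 15.

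The second question was whether the clones of both deletions differed from each other. Set against ΔSE12313-b directly, ΔE2 had 1 of the 38 genes past the thresholds in the higher direction, where 1.6% of all genes tested were called higher, and 0 called lower, where 2.63% were. That gene was RNASEH2B, which entered the test only through its high ΔE2 libraries, so that its difference is a description and its call is not counted as support. Its log2 difference was 2.20 ± 0.53 (adjusted p = 0.0195) on the few reads given above, and it missed the thresholds without the ΔE2 clone of replicate 2 (adjusted p = 0.0511) or 3 (adjusted p = 0.0624) and with pseudocounts of 0.01 (3.50, adjusted p = 0.0616) and 1 (0.72, under 2-fold). An adjusted p under 0.05 at any fold was common in this comparison, with 3590 of all 13790 genes tested (limma). Another 7 of the 38 genes had one, with differences under 2-fold. Higher in ΔE2 were RNASEH2C by 0.78 ± 0.20 (adjusted p = 0.025) and POLA2 by 0.65 ± 0.11 (adjusted p = 0.00547). POLA2 was at 14.4, 12.2 and 15.0 FPKM in ΔE2 and 9.79, 8.56 and 7.98 in ΔSE12313-b, with no overlap. Lower in ΔE2 were RNASEH2A (-0.61 ± 0.11, adjusted p = 0.00719), RFC4 (-0.60 ± 0.07, adjusted p = 0.00122), POLD1 (-0.55 ± 0.11, adjusted p = 0.00913), GINS3 (-0.49 ± 0.13, adjusted p = 0.0285) and LIG1 (-0.34 ± 0.07, adjusted p = 0.0131). RFC4 was at 20.9, 19.03 and 19.3 FPKM in ΔE2 and 31.2, 28.6 and 30.4 in ΔSE12313-b. The differences of the other 30 genes ran from -0.34 to 0.41, and their adjusted p of 0.05 or more does not show them to be equal.

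Chromosome arms as a whole also differed between the deletions. Over all genes tested the median difference of ΔE2 minus ΔSE12313-b was -0.11, and 35.7% of them had a difference above 0, as did 19 of the 38 genes. Over the 546 genes tested on 11q the median was 0.28, and the 5 of the 38 genes on 11q (POLA2, POLD3, POLD4, FEN1 and RNASEH2C) all had a difference above 0. On 3q, which holds RFC4, the median was -0.34, and on 19q, which holds POLD1 and LIG1, it was -0.19. Genes also went without their arm. The median was -0.46 on 10q, where DNA2 had -0.07, and -0.26 on 14q, where POLE2 had 0.10. The median was 0.04 on 19p, which holds RNASEH2A, and 0.16 on 16q, which holds GINS3, where both genes were lower in ΔE2. What part the arms have in the differences was not tested.

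Clones of 1 deletion differed among themselves in the same direction for many of the genes. Among the ΔE2 clones, replicate 2 was the lowest for 30 of the 38 genes, with a median deviation from the group mean of -0.12 on the log2 scale, while it was the lowest for 38.8% of all genes tested. Without this clone, the one that stood apart in CDH5 and PECAM1, 33 of the 38 genes were called higher in ΔE2. Replicate 3 was the highest for 26 genes (0.11), against 40.8% of all genes. Among the ΔSE12313-b clones, replicate 1 was the highest for 25 genes (0.08, against 33.2% of all genes) and replicate 3 the lowest for 21 (-0.06, against 39.6%). These deviations are small beside the median log2 fold changes of 2.03 and 2.14. The median SD between libraries on the log2 scale was 0.09 for the 38 genes in control, 0.14 in ΔE2 and 0.12 in ΔSE12313-b, and for all genes tested 0.07, 0.15 and 0.15.

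The last question was how far the difference reached into the rest of the replication machinery. Of 78 other replication genes in 7 lists, 74 were tested, of which 41 were called higher and 2 lower in ΔE2 (11.2% and 8.36% of all genes tested) and 40 higher and 1 lower in ΔSE12313-b (14.7% and 7.83% of all genes). Each list below is to be read against these shares. Among the genes named below, ORC1, MCM10, POLQ, EXO1 and DSCC1 reached the minimum level only with the clones, so their calls are descriptions. With FPKM above 0 in at least 2 libraries as the minimum, the counts called higher were again 41 and 40. Between the deletions 0 of the 74 were called in either direction (1.6% of all genes tested higher in ΔE2 and 2.63% lower). An adjusted p under 0.05 with a difference under 2-fold was found for 19 of them (limma). Of all 13790 genes tested, 3590 had an adjusted p under 0.05 in this comparison at any fold. Against control, the median log2 fold change of the 74 genes was 1.21 in ΔE2 and 1.22 in ΔSE12313-b.

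Licensing of origins and loading of the MCM helicase, which precede the steps above, had 11 of 16 genes called higher in ΔE2 and 12 in ΔSE12313-b. ORC1, the origin recognition subunit that is made anew in each cycle, went from 0.114 ± 0.0502 FPKM to 9.70 ± 1.67 and 10.0 ± 1.3 (log2 fold changes of 5.52 and 5.57, with 6 and 3 reads in control). CDC6, which loads MCM onto origins with ORC, had log2 fold changes of 4.32 and 4.40, and ORC6 4.22 and 3.98. Origin firing had 9 of 9 genes called higher in both, led by MCM10 (4.87 and 5.32), a scaffold of the active helicase, RECQL4 (3.23 and 3.80) and MTBP (2.23 and 2.19).

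Of the other DNA polymerases and their partners, 13 genes were tested. In ΔE2 3 of these were called higher and 2 lower, and in ΔSE12313-b 1 higher and 1 lower. Their median log2 fold changes were 0.08 and -0.04, beside 0.14 and 0.27 over all genes, and their difference from the other lists was not tested. POLQ, the polymerase of microhomology-mediated end joining, was the one called higher in both (3.97 and 3.82), from 0.230 ± 0.0573 FPKM to 5.05 ± 0.797 and 4.60 ± 0.958. POLH and REV3L, which copy past lesions, were called higher in ΔE2 (1.02 and 1.05), and their values in ΔSE12313-b were 0.87 and 0.57. POLG2, the accessory subunit of the mitochondrial polymerase, was lower in both (-1.12 and -1.12), from 9.96 ± 0.183 FPKM to 4.52 ± 0.148 and 4.55 ± 0.698. POLL, a polymerase of repair, fell in ΔE2 (-1.05, adjusted p = 7.66e-05) and had -0.43 in ΔSE12313-b (adjusted p = 0.00553). The repair polymerase POLB was at 0.08 and -0.24 and the mitochondrial POLG at -0.25 and -0.02, none past the threshold. POLN, DNTT and TERT were under the minimum.

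Clamp loaders other than RFC and the checkpoint clamp had 4 of 8 genes called higher in ΔE2 and 3 in ΔSE12313-b, led by DSCC1 (3.30 and 3.49), CHTF18 (1.38 and 1.85) and ATAD5, which unloads PCNA and went from 0.638 ± 0.0396 FPKM to 5.86 ± 1.05 and 5.08 ± 0.501. For the fork checkpoint the count was 4 of 6 in both, led by CDC25A (3.20 and 3.26), the phosphatase that activates CDK2, CHEK1 (2.22 and 1.63) and ATRIP (1.33 and 1.48). Histone chaperones had 2 of 9 called in ΔE2 and 3 in ΔSE12313-b, with ASF1B at 4.28 and 3.72, HAT1 at 1.28 and 1.33, and NASP at 0.80 and 1.03, the last called in ΔSE12313-b alone. ASF1A, the paralog of ASF1B, was at 0.62 and 0.00. Partners of PCNA and other enzymes of the fork had 8 of 13 called in both, led by PCLAF (5.19 and 5.73), a small protein that binds PCNA, the nuclease EXO1 (4.99 and 5.10) and the topoisomerase TOP2A (4.58 and 4.45). TOP1, the topoisomerase that cells use at all times, was at 0.17 and 0.42, and LIG3, the ligase of repair and mitochondria, at 0.09 and 0.02.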

How the data were processed

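RNA sequencing of 8 EA.hy926 libraries was analysed (2 control, 3 ΔE2 and 3 ΔSE12313-b). Per the labels, the authors trimmed reads with Trim Galore 0.4.4 and mapped them to GRCh37 (hg19) with STAR 2.5.4b. They deposited 1 table of FPKM for 65572 RefSeq transcripts, and how it counted strands is not given in the sources used here. The counts behind the authors' own calls, made with edgeR, were not used here.

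Each of 27946 genes was represented by its transcript of highest mean FPKM, and log2(FPKM + 0.1) of the 13790 genes with at least 0.5 FPKM in at least 2 libraries was fitted with limma 3.58.1 (R 4.3.3, 3 groups in 1 model, trend, empirical Bayes, two-sided, Benjamini-Hochberg adjustment). Called genes had an adjusted p under 0.05 and at least a 2-fold change. Reads behind each FPKM were recovered from its steps (100% of values whole within 0.1 read) and gave depth and 1 alternative. Depth limits genes with few reads. The limma fit and its calls were tested on simulated data. Exons shared between genes came from Gencode release 44 lifted to GRCh37, and only some of these overlaps are named above.

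The 38 genes, their roles and the other lists were chosen with earlier results of these data known. Values in every library are given for the largest and smallest mean change of each role and for genes called lower, called in 1 deletion only or called between deletions. From each other list the 3 largest rises and every gene called lower are named. POLB, POLG, ASF1A, TOP1 and LIG3 were added after their values had been seen. Alternatives were pseudocounts of 0.01 and 1, other minimum levels, centred libraries, quantile normalization, only the groups compared, no trend, 1.5-fold, an adjusted p under 0.01, the longest or every transcript, a replicate block, each library left out, and voom on recovered reads. A further marker gene of the lists is not reported here.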

Additional observations from a re-analysis of the deposited data

Results flagged for a closer look

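The differences between the deletions that had an adjusted p under 0.05 in the direct comparison (limma) are listed here because both deletions were set against the same controls and these genes changed by unequal amounts. On the log2 scale, ΔE2 minus ΔSE12313-b, they were 2.20 for RNASEH2B, 0.78 for RNASEH2C, 0.65 for POLA2, -0.34 for LIG1, -0.49 for GINS3, -0.55 for POLD1, -0.60 for RFC4 and -0.61 for RNASEH2A. RNASEH2B entered the test only through its high ΔE2 libraries, so its value is a description. Of all 13790 genes tested, 3590 had an adjusted p under 0.05 in the same comparison (limma). The next ratio is limited by exon bases also annotated to other genes, 34.1% for RNASEH2C (KAT5) and 54.5% for RNASEH2A (THSD8). The ratio of RNASEH2C to RNASEH2A was 0.406 ± 0.052 in control (SD, n = 2), 0.248 ± 0.0426 in ΔE2 and 0.0968 ± 0.0333 in ΔSE12313-b (SD, n = 3). With groups of 2 and 3 libraries, none was tested for libraries far from the others.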

How the results depend on the processing

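Of 22 alternatives, none turned a direction, and the counts of the 38 genes higher than in control stayed within 1.5 times in all of them. The same call held in every alternative for 34 of the 38 genes in ΔE2 and 33 in ΔSE12313-b, and for 3 of the 8 genes with a direct difference. The 1 gene higher in ΔE2 than in ΔSE12313-b became 0 with pseudocounts of 0.01 and 1, with a mean FPKM of at least 1 (RNASEH2B is then not tested) and with an adjusted p under 0.01, became 3 at 1.5-fold, and ranged from 0 to 1 with 1 library left out (0 without ΔE2 replicate 2 or 3). At 1.5-fold 2 of the 38 genes were lower in ΔE2 than in ΔSE12313-b, and of the other replication genes 4 were higher and 1 lower, where the 2-fold minimum gave 0. The other replication genes lower than in control became 0 in both deletions with a pseudocount of 1 and ranged from 1 to 2 in ΔE2 with 1 library left out (1 without ΔE2 replicate 1). Apart from the lower fold, the minimum level and the stricter threshold, the cause was not tested. Deviations of same-numbered libraries correlated between -0.08 and 0.11, and those of differently numbered libraries between -0.08 and 0.14. With groups this small, these correlations cannot show whether the replicate numbers pair the libraries. A replicate block gave 32 and 31 genes higher and 0 lower, 1 between the deletions, and 41 and 39 other replication genes higher. With few reads, as for RNASEH2B, depth limits what can be shown.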
